A study of Mus musculus with 24 samples.

Results

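Constructs seeded with bone marrow mesenchymal stromal cells (MSC) that had been primed with resolvin E1 (BCP+MSC+RvE1) were compared with the ceramic implanted without cells (BCP). The comparison took 8 of the 24 RNA sequencing samples of the series, 4 of each group, chosen by their labels. Each sample was the RNA of a whole construct at week 2, which holds the seeded cells, if any, and whatever host cells grew in. The granules were 40 mg of biphasic calcium phosphate, a bone substitute ceramic, and 2 constructs were placed under the skin of each mouse. All recipients, the BCP controls included, were Foxp3-DTR/eGFP mice of both sexes, 8 to 9 weeks old. In this strain Foxp3, the gene that marks regulatory T cells, drives a diphtheria toxin receptor and a fluorescent protein, and the mice of these groups had not received the toxin. The seeded MSC were used at passage 2. The study's methods give wild-type C57BL/6J marrow as their source, and its scheme of the design also names Foxp3 eGFP mice. They were seeded on the granules, and all constructs, those without cells included, were kept in culture for 36 h before implantation. RvE1 was used at 10 nM. The samples of a group came from separate mice. BCP+MSC+RvE1 and BCP thus differ by the cells and by the priming, and these cannot be told apart in this comparison. The BCP+MSC constructs, with cells that were not primed, are given beside it where they bear on a result. In 1 place the BCP+MSC+Treg constructs are added, for which MSC on the granules had been cocultured with activated CD4+CD25+Foxp3+ regulatory T cells sorted from the spleens of Foxp3-DTR/eGFP mice.

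Resolvin E1 is a lipid mediator made from eicosapentaenoic acid. It acts through the receptor Cmklr1 and blocks the leukotriene B4 receptor Ltb4r1, and it is known for ending inflammation. A calcium phosphate ceramic under the skin is first met by macrophages and fibroblasts. MSC seeded on it can lay down bone, a process marked by transcription factors such as Runx2 and Sp7 and by matrix proteins such as Ibsp and Bglap. Cells that build matrix or contract draw on the respiratory chain, the set of protein complexes I to IV of the inner mitochondrial membrane that carries electrons to oxygen, and on complex V, the ATP synthase that the resulting proton gradient drives.

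Library totals ran from 14111255 to 134691903 counts in BCP and from 18077487 to 144417743 counts in BCP+MSC+RvE1, so that 3 counts, taken as the floor, stood for between 0.0223 and 0.189 CPM, the counts of a gene scaled to the TMM-normalized library size. Mitochondrial genes held 1.36% to 2.26% of the counts in BCP and 0.77% to 2.70% in BCP+MSC+RvE1. On the first principal component of the 8 libraries, which held 46.6% of the variance, BCP replicate 4 at -94.8 and BCP+MSC+RvE1 replicate 2 at 98.5 were the ends, while the replicates 3 of both groups lay next to each other at -2.24 and 0.11. Of the 4 BCP libraries 1 had more Xist than Y-linked counts, and of the 4 BCP+MSC+RvE1 libraries 0 did.

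Short and long genes differed between the groups. Among the 9823 genes with a mean of at least 10 CPM, the log2 fold change was related to the exonic length of the gene (r = -0.47, a description across genes, which are not replicates). Outside the respiratory complexes, genes up to 750 bases had a median log2 fold change of 1.02, those of 2000 to 3000 bases 0.24 and those over 5000 bases -0.24. Taken per library, the median of 257 short genes (up to 1000 bases) minus that of 4077 long genes (over 5000 bases), each against its mean over 16 libraries, was -0.73, -0.57, -0.034 and -1.17 log2 CPM in BCP and 0.45, 1.005, -0.028 and 0.59 in BCP+MSC+RvE1. The groups did not overlap in this measure, and the replicates 3 were again close. What sets this trend was not tested. A fit with the trend of each library removed was added after seeing the data, and the text says where it ended the call of a named gene.

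**Figure D1:**
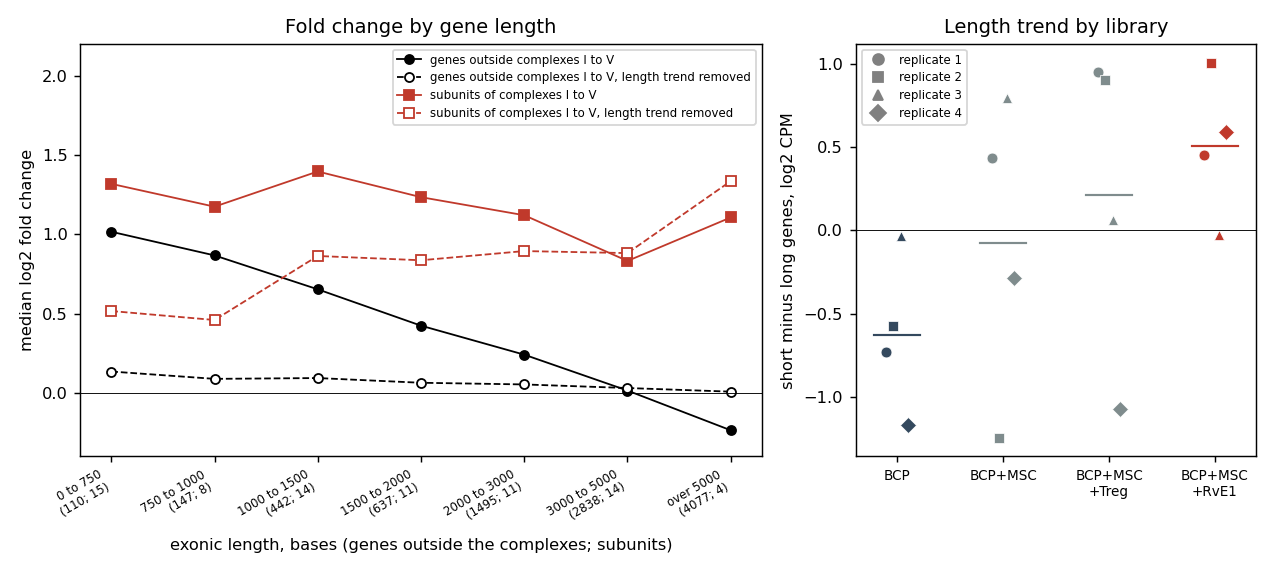
Left, the median log2 fold change of BCP+MSC+RvE1 against BCP (y axis) by exonic gene length in bases (x axis, with the numbers of genes outside the complexes and of subunits in parentheses), among genes with a mean of at least 10 CPM. Circles are genes outside complexes I to V and squares are the 77 subunits, with filled symbols for the fit as reported and open symbols for the length trend removed. Right, short minus long genes in log2 CPM for each library (symbols, by replicate) with group means (lines). The filled circles descend from 1.02 to -0.24 with length, while the filled squares lie between 0.83 and 1.40.

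Higher and lower are used here for genes past 2 thresholds of the edgeR fit, an unadjusted p of 0.05 and a log2 fold change of 1 in size, and such genes are given with their log2 fold change and its standard error (SE). Genes that missed either threshold are given with the adjusted p of the same fit, which was between 0.3 and 0.321 for the genes past both that are named. Of the 30564 genes tested, 1638 (5.36%) were higher and 972 (3.18%) lower in BCP+MSC+RvE1. With the length trend removed the split turned to 873 higher and 1450 lower. None passed an adjusted p of 0.05 (edgeR, Benjamini-Hochberg, 0 genes, smallest adjusted p = 0.3), although 4755 had an unadjusted p under 0.05, and DESeq2 placed 101 genes past the adjusted threshold on all 24 samples and 2640 on the 8 samples alone. In CPM, every BCP+MSC+RvE1 sample lay above every BCP sample for 1465 genes (4.79%) and below for 1773 (5.8%). The median log2 fold change of all genes was 0.03. These shares are the background for the counts in the lists below. Of the 37 lists with a median under 0.5 in size, 36 moved by over 1.5 times or turned sign when 1 library was left out, so medians of that size are given as a description. Among abundant genes, with a mean of 100 CPM or more, 153 of 1926 were higher and 9 lower.

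Most genes of the respiratory chain were higher in BCP+MSC+RvE1. Of the 77 nuclear-encoded subunits of complexes I to V, 50 were higher in BCP+MSC+RvE1 and 0 lower, against 5.36% and 3.18% of all genes. Their median log2 fold change was 1.17, each of the 77 was positive, and for 51 every BCP+MSC+RvE1 sample lay above every BCP sample. By complex, the higher members were 27 of 36 for complex I, 0 of 4 for complex II, 6 of 9 for complex III, 8 of 13 for complex IV and 9 of 15 for complex V, with medians of 1.22, 0.74, 1.13, 1.31 and 1.12. The mean log2 CPM of the complex I subunits was 5.44, 5.86, 6.21 and 4.93 in BCP replicates 1 to 4 and 7.12, 7.19, 6.37 and 6.81 in BCP+MSC+RvE1 replicates 1 to 4. The groups did not overlap, and replicate 3 was the highest of BCP and the lowest of BCP+MSC+RvE1.

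Many nuclear genes of the chain carry a site for nuclear respiratory factor 1 (NRF1) or for the estrogen-related receptors (ERR) near their start, so their promoters were read from RefSeq (GRCm38.p6). The NRF1 core was searched as GCGCANGCG and the ERR element as TCAAGGTCA, both on either strand, in the 250 bases before the start. A gene was counted if any of its promoters held the element. Promoters of 64 of the 77 subunits were found, and 14 of these genes (21.9%) held the NRF1 core and 1 (1.56%) the ERR element. Over all 27025 genes with a promoter, read over the same length, the shares were 5.86% and 0.422%. For the mitochondrial ribosome the NRF1 core was found for 5 of 35 genes (14.3%), and for the fast muscle contractile list for 0 of 13. A match is a description of letters and does not show that a factor binds. For display, elements that touched an annotated exon and the promoters of 1 chromosome were left out. Of the promoters that remained, 4 are shown, the 3 with the NRF1 core and the smallest p and the 1 with the ERR element. Each is the exon-free stretch before the start on the strand of the gene, 5′ to 3′, with the element in capitals. The 4 promoters lie on the minus strand at chr16:37654454-37654618 (Ndufb4), chr11:115419963-115420127 (Atp5h), chr4:123718203-123718436 (Ndufs5) and chr2:73911327-73911576 (Atp5g3, whose element reads on the opposite strand).
Ndufb4: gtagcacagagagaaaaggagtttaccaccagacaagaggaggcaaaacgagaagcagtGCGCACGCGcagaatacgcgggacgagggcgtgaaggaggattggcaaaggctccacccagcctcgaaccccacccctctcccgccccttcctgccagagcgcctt
Atp5h: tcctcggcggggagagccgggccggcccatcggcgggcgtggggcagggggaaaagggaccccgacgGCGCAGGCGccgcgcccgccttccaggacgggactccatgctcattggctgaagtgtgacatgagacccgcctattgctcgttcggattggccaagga
Ndufs5: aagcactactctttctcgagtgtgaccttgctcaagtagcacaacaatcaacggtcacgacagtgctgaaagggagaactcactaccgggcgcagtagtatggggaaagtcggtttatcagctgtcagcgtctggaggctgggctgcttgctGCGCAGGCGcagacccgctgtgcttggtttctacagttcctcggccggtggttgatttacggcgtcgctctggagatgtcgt
Atp5g3: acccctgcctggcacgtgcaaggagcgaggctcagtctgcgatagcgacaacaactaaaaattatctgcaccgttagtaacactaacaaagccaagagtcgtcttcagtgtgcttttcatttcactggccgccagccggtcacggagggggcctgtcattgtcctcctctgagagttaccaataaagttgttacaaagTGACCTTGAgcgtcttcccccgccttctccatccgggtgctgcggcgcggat

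Complex I takes electrons from NADH. Its smallest p was that of Ndufv3 (ENSMUSG00000024038.16, GRCm38 chr17:31520115-31531326), an accessory subunit of the NADH-binding module, at 48.6, 61.9, 76.7 and 34.1 CPM in BCP and 142, 131, 95.04 and 131 CPM in BCP+MSC+RvE1 (here and below in the order of replicates 1 to 4). Its log2 fold change was 1.17 with an SE of 0.36. Ndufv2, a core subunit of the same module, was at 50.3, 72.9, 91.3 and 35.4 CPM against 213, 289, 113 and 157 CPM, a log2 fold change of 1.63 (SE 0.51). Both groups were apart in either gene, by the least in replicate 3. Ndufs4, needed for the assembly of that module, was at 38.4, 55.0, 61.6 and 27.9 CPM in BCP against 132, 124, 81.9 and 100.5 CPM (log2 fold change 1.26, SE 0.41). Ndufb4, whose promoter is shown above, was at 6.30, 7.66, 11.8 and 4.60 CPM against 28.4, 43.9, 14.9 and 20.3 CPM, a log2 fold change of 1.81 (SE 0.61). Ndufs5 had 30.1, 31.3, 45.7 and 20.0 CPM in BCP and 87.8, 74.3, 54.5 and 66.4 CPM in BCP+MSC+RvE1 (log2 fold change 1.15, SE 0.40), again without overlap. Without BCP replicate 4, Ndufv3 and Ndufs5 were not called.

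Complex II, which feeds electrons from succinate, had no member past the fold threshold. Sdhd, one of its membrane anchors, was at 104, 141, 163 and 81.8 CPM in BCP and 240, 265, 172 and 204 CPM in BCP+MSC+RvE1 (log2 fold change 0.85, SE 0.33, adjusted p = 0.3). Sdhb, its iron-sulfur subunit, had a log2 fold change of 0.95 (adjusted p = 0.302). For 3 of the 4 members the groups did not overlap.

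In complex III, Uqcrh, the hinge protein that holds cytochrome c1, was at 109, 118, 192 and 74.7 CPM in BCP and 346, 528, 218 and 287 CPM in BCP+MSC+RvE1 (log2 fold change 1.48, SE 0.53). Uqcrb followed with 1.195 (SE 0.43). In complex IV, which reduces oxygen, Cox7c was at 51.4, 72.9, 107 and 42.3 CPM against 230, 406, 115 and 169 CPM (log2 fold change 1.75, SE 0.61). Cox6c had a log2 fold change of 1.48 (SE 0.52), with Vps13b on the opposite strand of its locus. In all of these the BCP+MSC+RvE1 samples lay above the BCP samples, with replicate 2 the highest and replicate 3 the lowest.

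For complex V, Atp5h, a subunit of the stator stalk, was at 112, 133, 192 and 81.5 CPM in BCP and 329, 440, 210 and 311 CPM in BCP+MSC+RvE1 (log2 fold change 1.31, SE 0.46). Atp5g1 and Atp5g3 encode the same subunit of the rotating ring. Atp5g1 had 71.8, 134, 156 and 66.7 CPM against 317, 233, 223 and 191 CPM, a log2 fold change of 1.17 (SE 0.41) without overlap. Atp5g3 had a log2 fold change of 1.12 (SE 0.42), and its groups overlapped, since BCP+MSC+RvE1 replicate 3 at 205.6 CPM was below BCP replicate 3 at 240.1 CPM, and its call was lost without BCP replicate 4 or BCP+MSC+RvE1 replicate 2.

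**Figure D2:**
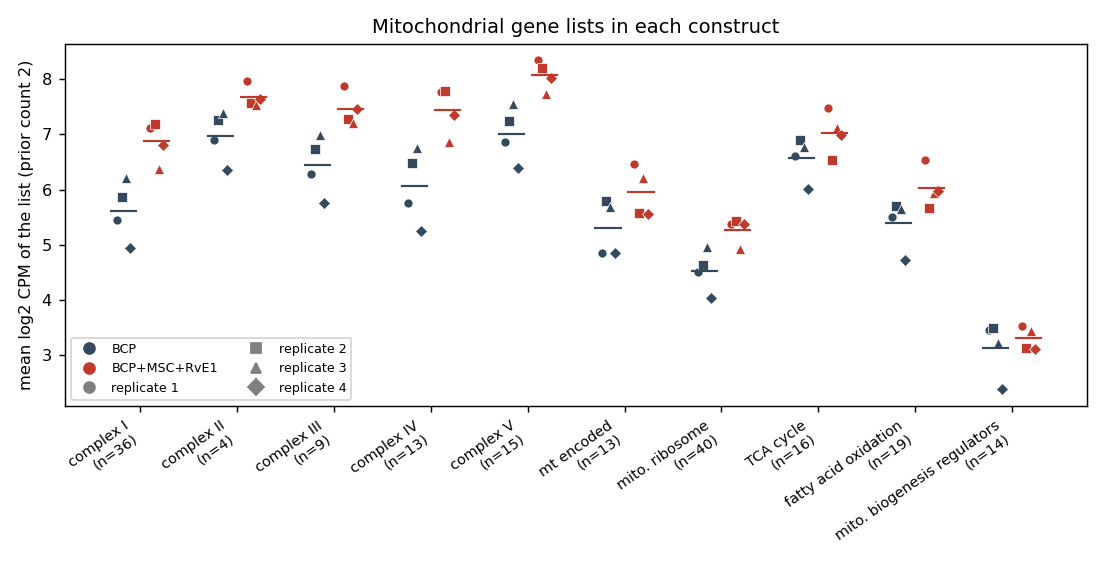
Mean log2 CPM of the respiratory complexes and of the other mitochondrial gene lists (y axis, number of genes in parentheses on the x axis) in the 4 BCP and the 4 BCP+MSC+RvE1 libraries, with 1 symbol shape for each replicate and lines for the group means. For complex I the BCP+MSC+RvE1 libraries lie between 6.37 and 7.19 and the BCP libraries between 4.93 and 6.21.

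The 77 subunits had a median length of 1550 bases, and they were set beside other genes of their length. In the class up to 750 bases 10 of 15 subunits were higher (median log2 fold change 1.32), against 43 of 110 other genes (median 1.02). In the class of 1000 to 1500 bases 10 of 14 subunits were higher (median log2 fold change 1.40), against 85 of 442 other genes (median 0.65). In the class of 3000 to 5000 bases these were 6 of 14 subunits (median 0.83) and 57 of 2838 other genes (median 0.01). With the length trend removed, the median of the 77 subunits was 0.81, 75 were positive and 22 were higher. An unadjusted p under 0.05 was reached by 62 subunits as reported and by 48 with the trend removed. Ndufv2, Ndufb4, Cox7c, Ndufv3, Cox6c and Atp5g1 stayed past both thresholds (log2 fold changes 1.36, 1.22, 1.13, 1.002, 1.51 and 1.29). Ndufs5 moved from 1.15 to 0.44 and Uqcrb from 1.195 to 0.49, and neither was called. The calls of Ndufs4 (0.83), Uqcrh (0.92), Atp5h (0.86) and Atp5g3 (0.89) were lost as well. A covariate for the muscle level of each library was the mean log2 CPM of the fast and slow muscle contractile genes together. It gave a median of 0.78 with 76 of 77 positive and 12 higher. Ndufv2, Ndufb4 and Cox7c were again called, while the other 9 subunits named as higher above were not, with log2 fold changes from 0.65 for Atp5g1 to 0.999 for Uqcrh. Leaving out BCP replicate 4 left 27 subunits higher.

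Other mitochondrial groups were less uniform. Of the 40 tested proteins of the mitochondrial ribosome, which translates the genes of mitochondrial DNA, 11 were higher and 38 positive, with a median log2 fold change of 0.86 (0.53 with the length trend removed). The count was 2 without BCP replicate 4, 3 without BCP+MSC+RvE1 replicate 2, 7 without BCP replicate 1 and 21 and 19 without the replicates 3 of BCP and BCP+MSC+RvE1, and 1 with the muscle covariate. Mrps11 had a log2 fold change of 1.05 (SE 0.34) and Mrpl16 of 1.04 (SE 0.35). Both calls were lost without BCP replicate 4 or BCP+MSC+RvE1 replicate 2, and that of Mrps11 also without BCP replicate 1. With the length trend removed they were lost too (0.82 for Mrps11 and 0.44 for Mrpl16), as they were with the muscle covariate (0.76 and 0.74). Of the 13 subunits encoded in mitochondrial DNA 3 were higher, mt-Nd6, mt-Co2 and mt-Atp6, and the median of the 13 was 0.52, which moved to -0.09 with the length trend removed and 0.35 without BCP+MSC+RvE1 replicate 3. mt-Co1, a catalytic subunit of complex IV, was at 6036, 9615, 7408 and 5688 CPM in BCP and 9036, 861.2, 11860 and 5518 CPM in BCP+MSC+RvE1, a log2 fold change of -0.08 with overlapping groups, and it was lowest in BCP+MSC+RvE1 replicate 2. mt-Nd6, a complex I subunit that shares its locus with mt-Nd5 on the opposite strand, was at 364, 650.7, 829.5 and 272.4 CPM against 1524, 1558, 964.4 and 1071 CPM (log2 fold change 1.27, SE 0.46). The call was lost with the length trend removed (0.43) and with the muscle covariate (0.85). mt-Co2, also of complex IV, was at 0.991, 2.70, 4.505 and 1.7 CPM against 13.2, 35.3, 4.69 and 8.18 CPM (log2 fold change 2.59, SE 0.85), far below mt-Co1. Reads with several alignments were not counted and nuclear DNA holds near-identical copies of mitochondrial genes, so the levels of mt-Co2 and mt-Atp6 are uncertain. The call of mt-Atp6 (log2 fold change 1.35, SE 0.59) was lost in 5 of 19 fits, among them those with the length trend removed and with the muscle covariate.

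Among 16 genes of the tricarboxylic acid cycle and pyruvate oxidation 1 was higher, with a median of 0.38. It was Pdhb, a subunit of pyruvate dehydrogenase (log2 fold change 1.03, SE 0.43), whose groups overlapped, and the call was lost with the length trend removed, with the muscle or the library total as a covariate, and without BCP replicate 4, BCP+MSC+RvE1 replicate 1 or BCP+MSC+RvE1 replicate 2. Of 19 genes of fatty acid oxidation 2 were higher, and the median was 0.74. Etfb, which passes electrons from acyl-CoA dehydrogenases to the chain, was at 18.3, 16.6, 25.5 and 6.74 CPM in BCP and 71.0, 115, 31.9 and 64.4 CPM in BCP+MSC+RvE1 (log2 fold change 2.06, SE 0.83). Hadh had a log2 fold change of 1.23 (SE 0.56) and Cpt2, which imports long-chain acyl groups, of 0.98 (adjusted p = 0.303). Etfb and Hadh lost their calls with the muscle covariate and without BCP replicate 4 or BCP+MSC+RvE1 replicate 2, and Hadh also without BCP+MSC+RvE1 replicate 1 or 4 or BCP replicate 1 and with the library total as a covariate.

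Factors known as regulators of mitochondrial genes had no calls in the reported fit. Of 14 regulators of mitochondrial biogenesis 0 were higher or lower, with a median of 0.07. The count of lower genes was 1 without BCP replicate 2, 3 or 4 or BCP+MSC+RvE1 replicate 3. It was also 1 with DESeq2 on all samples, with RLE normalization and with no filter. Ppargc1a, the coactivator of NRF1 and the ERR, was at 2.16, 3.62, 2.10 and 1.07 CPM in BCP and 5.02, 3.31, 3.84 and 2.61 CPM in BCP+MSC+RvE1 (log2 fold change 0.71, adjusted p = 0.464). With the muscle covariate its log2 fold change was 0.19. Esrra, which encodes ERR alpha, had a log2 fold change of 0.43 (adjusted p = 0.434), or 0.23 with the muscle covariate. Esrrb, which encodes ERR beta, had the largest log2 fold change of the list in size, -1.80 (adjusted p = 0.325). Gabpa, or nuclear respiratory factor 2, was at 37.3, 37.2, 32.1 and 33.0 CPM against 27.0, 24.3, 26.1 and 24.8 CPM, so that all BCP+MSC+RvE1 samples lay below BCP by a small amount (log2 fold change -0.45, SE 0.19, adjusted p = 0.3), with Atp5j overlapping its locus.

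Glycolysis had 2 higher and 1 lower of 17 genes (median 0.28, or 0.14 without BCP replicate 1, 0.45 without BCP replicate 2 and 0.14 with the muscle covariate). The higher genes were Pgam2 (log2 fold change 2.17, SE 0.96) and Eno3 (1.67, SE 0.78), the isoforms found in muscle. Both calls were lost with the length trend removed (1.53 and 1.39) and without BCP replicate 1, BCP replicate 4 or BCP+MSC+RvE1 replicate 1, that of Pgam2 also without BCP+MSC+RvE1 replicate 2, and that of Eno3 also without BCP+MSC+RvE1 replicate 3 and with the muscle covariate (0.70). Aldoc, an aldolase known from the brain, was lower, at 40.7, 20.4, 9.07 and 62.1 CPM in BCP and 11.3, 6.98, 9.34 and 9.53 CPM in BCP+MSC+RvE1 (log2 fold change -1.82, SE 0.47). BCP replicate 3 lay within the BCP+MSC+RvE1 values. The log2 fold change of Aldoc moved to -1.14 with the muscle level and to -1.20 with the library total as a covariate, and it was still called.

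Muscle and fat markers also differed in level between the libraries. The constructs lay under the skin, where a thin muscle sheet and fat adjoin them, and in such bulk samples fewer cells of a type and less RNA per cell cannot be told apart. The 16 fast muscle contractile genes were all positive, with a median log2 fold change of 1.41, and 3 were higher. Their mean log2 CPM was 7.5, 9.57, 9.13 and 7.26 in BCP and 10.5, 9.32, 10.5 and 9.66 in BCP+MSC+RvE1, which overlap, and their summed level ran from 5751 to 24090 CPM in BCP and from 25500 to 47110 CPM in BCP+MSC+RvE1. No marker of this list was at 0 in all 8 libraries. The count of higher genes in it was 0 without BCP replicate 1, BCP replicate 4 or BCP+MSC+RvE1 replicate 1, and 8 without BCP replicate 2. It was 10 with edgeR on the 8 samples, 7 with DESeq2 on all samples and 12 with DESeq2 on the 8 samples. Pvalb, a calcium buffer of fast fibres, was at 311.8, 1030, 1117 and 299.6 CPM in BCP and 4699, 4256, 2517 and 2231 CPM in BCP+MSC+RvE1 (log2 fold change 2.31, SE 0.97). Tnni2, fast troponin I, had a log2 fold change of 2.28 (SE 0.99). The calls of Pvalb and Tnni2 were each lost without BCP replicate 1, BCP replicate 4 or BCP+MSC+RvE1 replicate 1. That of Tnni2 was also lost without BCP+MSC+RvE1 replicate 2. That of Pvalb was also lost with the muscle covariate, which is made in part from this list (0.96). The third, Mylpf, was called in 9 of 19 fits (log2 fold change 1.82, SE 0.87), and not with the length trend removed (1.30). Acta1, skeletal actin, was at 1289, 5398, 3348 and 1191 CPM against 8223, 3287, 8940 and 4935 CPM (log2 fold change 1.18, adjusted p = 0.43).

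Of the myogenic regulators 1 of 14 was higher, with a median of 0.07, and it was Des, the intermediate filament of muscle (log2 fold change 1.88, SE 0.84), a call lost without BCP replicate 1 or 4 or BCP+MSC+RvE1 replicate 1 or 2. The 11 slow muscle genes had a median of 1.44 with 0 higher, and from 0.964 to 1.91 when 1 library was left out. With the muscle covariate the medians of the slow muscle genes and of the myogenic regulators were 0.14 and -0.74. The slow muscle genes are themselves part of that covariate, so nothing is read from the move of their median.

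Among 24 white adipocyte genes 23 were positive and 1 was higher, with a median of 0.95. The median was 0.44 without BCP+MSC+RvE1 replicate 1, 0.61 without BCP replicate 4 and 0.50 with the library total as a covariate. Fabp4, the fatty acid binding protein of adipocytes, was at 742, 493.9, 652.4 and 98.6 CPM in BCP and 3689, 1596, 849.1 and 2093 CPM in BCP+MSC+RvE1 (log2 fold change 2.05, SE 0.95). Leaving out BCP replicate 2, 3 or 4 or BCP+MSC+RvE1 replicate 1 or 4 ended the call. So did the library total or the muscle level as a covariate, with log2 fold changes of 1.78 and 1.845. Adipoq, which encodes adiponectin, was at 337, 225, 170 and 2.83 CPM against 803, 134, 280 and 534 CPM (adjusted p = 0.563), and Lep, leptin, had adjusted p = 0.777. BCP replicate 4 was the lowest of the 8 libraries in this list, at a mean log2 CPM of 3.49 against 7.24 to 7.86 in the other BCP libraries. Ucp1, the uncoupling protein of brown fat, had 1, 0, 2 and 0 counts in BCP and 82, 0, 3 and 12 counts in BCP+MSC+RvE1 (adjusted p = 0.472), mostly in replicate 1. The part of muscle and fat in the respiratory values was not tested beyond the covariate given above.

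The respiratory chain has isoforms that differ by tissue, and these were compared per kilobase of exon, so that levels of different genes can be set side by side. Cox8b, the complex IV subunit 8 of muscle, heart and brown fat, made up 9.49%, 24.8%, 19.6% and 8.3% of Cox8b plus Cox8a in BCP and 53.3%, 54.3%, 53.5% and 26.0% in BCP+MSC+RvE1. For Cox7a1 with Cox7a2 the share of the muscle isoform was 14.5%, 43.4%, 31.3% and 16.3% against 50.3%, 44.4%, 45.5% and 37.5%, which overlap. Cox6a2, the muscle and heart isoform of subunit 6a, made up 10.9%, 35.4%, 23.0% and 12.7% of its pair with Cox6a1 in BCP and 41.7%, 14.4%, 58.0% and 22.3% in BCP+MSC+RvE1, so that replicates 2 and 4 of the latter lay below some BCP libraries. Slc25a4, the ADP/ATP carrier of muscle and heart, had 40.2%, 62.9%, 56.4% and 39.8% of its pair with Slc25a5 in BCP and 79.5%, 75.0%, 73.3% and 65.5% in BCP+MSC+RvE1. As differences, Cox8b had a log2 fold change of 2.19 (SE 1.00), Cox7a1 of 2.08 (SE 0.93) and Slc25a4 of 1.27 (SE 0.51), while Cox6a2 did not pass (1.57, adjusted p = 0.37). Each of the 3 calls was lost without BCP replicate 1, BCP replicate 4 or BCP+MSC+RvE1 replicate 1, those of Cox8b and Cox7a1 also without BCP+MSC+RvE1 replicate 2, and that of Cox8b also without BCP replicate 3, and none was called with the muscle covariate. The isoforms of other tissues gave 1.11 for Cox7a2 (SE 0.45, not called without BCP replicate 4 or BCP+MSC+RvE1 replicate 1, nor with the muscle covariate), 1.16 for Cox6a1 (adjusted p = 0.391) and 0.17 for Cox8a (adjusted p = 0.875). With the length trend removed the log2 fold change of Cox8b was 1.31, that of Cox7a1 1.31, that of Cox7a2 0.41 and that of Cox8a -0.72, and of these only Cox8a had an unadjusted p under 0.05. In the same fit Slc25a4 stayed past both thresholds (1.11). The median of the 4 muscle and heart isoforms was 1.83 as reported and 1.21 with the trend removed, and that of the 4 ubiquitous isoforms 0.64 and -0.10.

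**Figure D3:**
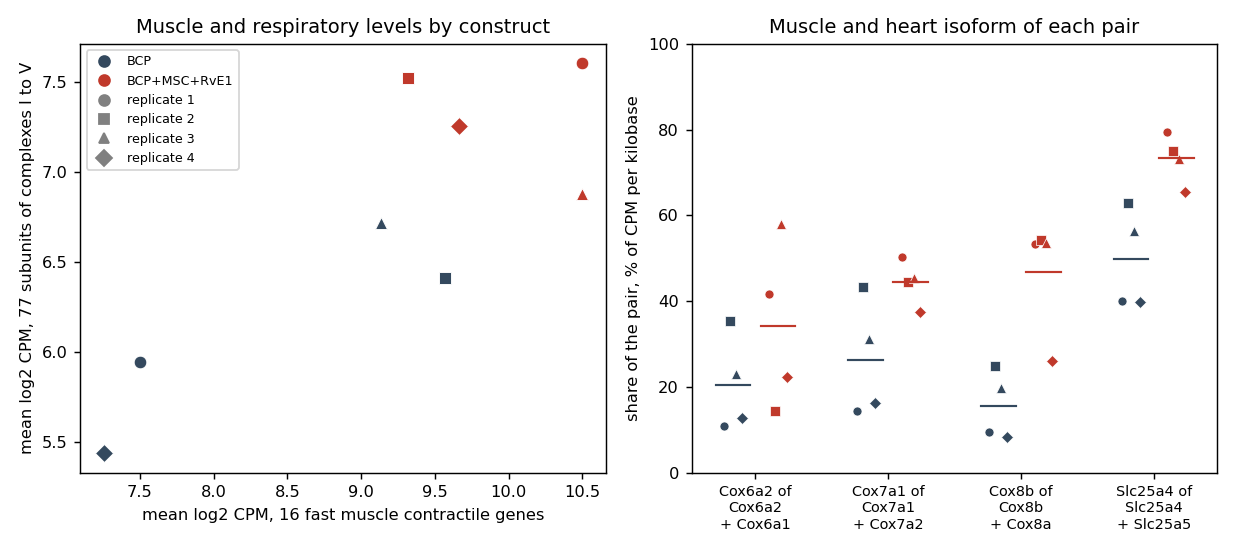
Left, the mean log2 CPM of the 77 respiratory subunits (y axis) against that of the 16 fast muscle contractile genes (x axis). Right, the share of the muscle and heart isoform in each pair of isoforms, in percent of CPM per kilobase, with lines for group means. Symbols are the 8 libraries, by replicate. The Cox8b share lies between 8.3% and 24.8% in BCP and between 26.0% and 54.3% in BCP+MSC+RvE1.

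Among the bone matrix genes, 2 late markers, Ibsp and Bglap, were higher. Ibsp (ENSMUSG00000029306.8, chr5:104299171-104311469), bone sialoprotein of mineralizing matrix, had 0, 0, 3 and 0 counts in BCP and 35, 36, 399 and 165 counts in BCP+MSC+RvE1, or 0.476, 2.17, 7.55 and 1.23 CPM. It had the smallest p among the higher genes named by rule (fitted log2 fold change 7.63, SE 1.62, a value that depends on the prior count as BCP is near 0), and its pooled CPM was 162-fold higher (95% counting interval 55.2 to 788). BCP+MSC+RvE1 replicate 3 held 399 of the 635 counts, and without it the pooled ratio was 74.4, while the fitted log2 fold change ran from 6.47 to 10.2 when 1 library was left out. Fgf4, a fibroblast growth factor, had 0, 0, 1 and 0 counts against 2, 5, 6 and 6, and was higher with a pooled ratio of 14.5 (2.31 to 604). Bglap, osteocalcin, had 0, 0, 1 and 0 counts against 5, 3, 4 and 4, and was higher with a pooled ratio of 12.3 (1.90 to 514). Bglap has near-identical neighbours, Bglap2 and Bglap3, between which reads could be lost or split, and its call was lost with the length trend removed and without BCP replicate 2 or BCP+MSC+RvE1 replicate 2. Its fitted log2 fold change was 3.69 as reported and 3.245 with the length trend removed, values that depend on the prior count as for Ibsp. Fgf4 and Bglap rest on at most 6 counts in a library, and since 3 counts stand for 0.175 CPM in BCP replicate 1 and 0.189 CPM in BCP replicate 4, a count of 0 there cannot place these libraries below most of the BCP+MSC+RvE1 values of Fgf4 (0.0272 to 0.301 CPM) and Bglap (0.0298 to 0.181 CPM). For Ibsp each BCP+MSC+RvE1 library lay above that floor.

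The transcription factors of osteoblasts had 0 of 8 higher or lower. Runx2 was at 21.1, 20.7, 25.3 and 28.01 CPM in BCP and 14.5, 22.5, 21.3 and 17.2 CPM in BCP+MSC+RvE1 (log2 fold change -0.34, adjusted p = 0.513). Sp7 had 2, 4, 9 and 0 counts against 9, 4, 23 and 10 (adjusted p = 0.421), and Nog, a BMP antagonist, had adjusted p = 0.585. Of 19 tested bone matrix genes 2 were higher, namely Ibsp and Bglap, and the median was 0.12. Spp1, osteopontin, which macrophages also make, was at 2276, 3152, 3265 and 3891 CPM against 2304, 5021, 3320 and 4936 CPM (log2 fold change 0.31, adjusted p = 0.765). Among 20 cartilage genes 0 were higher and 1, Has2, was lower. Has2, a hyaluronan synthase, was at 15.4, 12.1, 21.5 and 69.4 CPM in BCP and 7.41, 5.96, 19.2 and 7.31 CPM in BCP+MSC+RvE1 (log2 fold change -1.56, SE 0.60). BCP replicate 4 was the highest, and without it, or without BCP+MSC+RvE1 replicate 2, Has2 was not called, nor with the muscle covariate (-0.80). The FGF ligands had 2 of 21 higher, Fgf4 and Fgf21 (log2 fold change 2.46, SE 0.98, not called with the length trend removed or without BCP+MSC+RvE1 replicate 2), and the BMP ligands and antagonists 0 of 19.

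Osteoclast genes had 0 of 14 higher and 1 lower, with a median of -0.19. The lower gene was Tnfsf11, or RANKL, at 18.6, 2.06, 4.59 and 8.06 CPM in BCP and 3.46, 1.86, 3.57 and 3.30 CPM in BCP+MSC+RvE1 (log2 fold change -1.43, SE 0.55), which overlapped and was not called without BCP replicate 1 or with the muscle level (-0.98) or the library total as a covariate. Nfatc1, the transcription factor that RANKL induces in osteoclasts, lay below BCP in each BCP+MSC+RvE1 sample, at 51.6, 53.3, 54.2 and 68.2 CPM against 38.7, 24.6, 47.0 and 30.4 CPM (log2 fold change -0.69, SE 0.26, adjusted p = 0.3). Atp6v0d2, a proton pump subunit needed for osteoclast fusion, was likewise apart, with a log2 fold change of -0.62 (adjusted p = 0.323).

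Markers of marrow stromal cells overlapped in their summed level. Of 15 such genes 0 were higher and 1 was lower, their median was -0.22, and their summed level was 2068 to 2581 CPM in BCP and 1882 to 2435 CPM in BCP+MSC+RvE1. The lower gene was Ngfr, a surface marker of marrow stromal cells and of Schwann cells, at 11.7, 12.5, 3.39 and 6.11 CPM against 4.39, 1.44, 2.74 and 1.42 CPM (log2 fold change -1.74, SE 0.55), with overlap through BCP replicate 3. Host fibroblasts share most of these markers.

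Fibroblast and fibrillar matrix genes had a negative median. Of 21 only 1 was positive, 0 were called, and the median was -0.65, or -0.44 with the length trend removed (median length 8326 bases) and -0.36 with the muscle covariate. Without BCP+MSC+RvE1 replicate 3, 6 were lower. Col1a1, collagen I, was at 6827, 8661, 9313 and 13220 CPM in BCP and 3867, 3765, 8400 and 4816 CPM in BCP+MSC+RvE1 (log2 fold change -0.87, adjusted p = 0.335). Postn, periostin, had a log2 fold change of -0.70 (adjusted p = 0.352). The matrix metalloproteinases and their inhibitors had 2 higher of 15, the inhibitors Timp1 (log2 fold change 1.535, SE 0.716) and Timp4 (2.465, SE 1.06), and 2 lower. Neither was called without BCP replicate 1, 2 or 4, Timp4 was not called without BCP+MSC+RvE1 replicate 1, and Timp1 was not called without BCP+MSC+RvE1 replicate 2 or 4, with the length trend removed (0.74) or with the muscle covariate (1.18). Mmp19 was lower, at 717.7, 674.3, 744.7 and 1023 CPM in BCP and 248.2, 191.0, 691.1 and 218.1 CPM in BCP+MSC+RvE1 (log2 fold change -1.23, SE 0.51), with BCP+MSC+RvE1 replicate 3 within the BCP values. Timp3, an inhibitor of these enzymes, was lower as well (-1.33, SE 0.54), and its groups overlapped too. Both calls were lost with the muscle covariate, without BCP replicate 4 and without BCP+MSC+RvE1 replicate 1 or 2, that of Mmp19 also without BCP+MSC+RvE1 replicate 4, and that of Timp3 also with the library total as a covariate. In the vessel wall, Egfl7 of endothelial cells was at 45.0, 49.1, 63.9 and 49.3 CPM in BCP and 111, 89.7, 76.6 and 104 CPM in BCP+MSC+RvE1 (log2 fold change 0.88, adjusted p = 0.3), and Notch3 of pericytes had a log2 fold change of -0.78 (adjusted p = 0.3). Neither reached the fold threshold, and the medians of the endothelial and the pericyte lists were 0.03 and 0.09.

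The receptor of RvE1 was measured in every library. Cmklr1 was at 105, 79.3, 76.6 and 98.3 CPM in BCP and 57.3, 67.6, 74.2 and 57.1 CPM in BCP+MSC+RvE1, so that the groups did not overlap, by a narrow margin at replicate 3 (log2 fold change -0.49, SE 0.24, adjusted p = 0.324; exact permutation test of log2 CPM, p = 0.0286, the smallest that 70 arrangements allow). With the muscle covariate its log2 fold change was -0.27. Ltb4r1 was at 10.9, 26.1, 16.2 and 16.8 CPM against 8.19, 45.5, 14.9 and 31.7 CPM (log2 fold change 0.51, adjusted p = 0.628). Of 17 receptors and enzymes of lipid mediators 1 was higher, Ltc4s, the synthase of leukotriene C4, at 16.4, 34.4, 35.8 and 12.0 CPM in BCP and 45.4, 107, 20.1 and 73.6 CPM in BCP+MSC+RvE1 (log2 fold change 1.31, SE 0.58). Its groups overlapped, and its call was lost with the length trend removed (0.49), with the muscle covariate (1.09) and without BCP replicate 1 or 4 and without BCP+MSC+RvE1 replicate 2 or 4.

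Macrophage genes had 1 higher and 1 lower of 16, where 5.36% and 3.18% of all genes were, with a median of 0.00. Mertk, the receptor by which macrophages take up dying cells, was lower, at 78.7, 53.0, 63.0 and 91.3 CPM in BCP and 37.1, 25.1, 41.8 and 30.1 CPM in BCP+MSC+RvE1 (log2 fold change -1.09, SE 0.38), and every sample lay below BCP. Without BCP replicate 4 or BCP+MSC+RvE1 replicate 2, or with the muscle covariate (-0.78), it was not called. Mpeg1, perforin-2 of macrophages, was also below BCP in each sample, at 1119, 841.9, 935.7 and 1174 CPM against 749, 399.5, 807.6 and 446.6 CPM (log2 fold change -0.76, adjusted p = 0.303). Ly6c2, the marker of inflammatory monocytes, was the higher gene (1.58, SE 0.65). Its groups overlapped, and it was not called without BCP replicate 1, 2 or 4 or without BCP+MSC+RvE1 replicate 4. The sets of classically and alternatively activated macrophage genes had 0 called, with medians of 0.08 and 0.43. The latter was 0.0889 without BCP+MSC+RvE1 replicate 4 and 0.13 with the length trend removed, and the former -0.16 with the trend removed.

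Inflammatory cytokines had 0 higher and 1 lower of 16, with a median of -0.24, which was -0.0496 without BCP replicate 4, -0.35 without BCP+MSC+RvE1 replicate 1 and -0.50 with the length trend removed. Il1a, an alarm cytokine of the interleukin 1 family, was lower, at 8.11, 6.21, 7.98 and 9.25 CPM in BCP and 4.99, 1.56, 5.33 and 3.63 CPM in BCP+MSC+RvE1 (log2 fold change -1.01, SE 0.47), a call that was lost with the muscle covariate, in the fit of the 8 samples, without BCP replicate 1, 3 or 4 and without BCP+MSC+RvE1 replicate 2 or 4. Il6 was at 0.525, 0.749, 14.4 and 12.4 CPM against 1.17, 2.17, 6.41 and 2.06 CPM (log2 fold change -1.25, adjusted p = 0.419), and BCP replicates 3 and 4 were high. Its log2 fold change ran from -1.97 to -0.61 when 1 library was left out. It was called lower without BCP replicate 1 or 2 or BCP+MSC+RvE1 replicate 3. Of the other cytokines and chemokines, Tnf (adjusted p = 0.749), Csf2 (adjusted p = 0.458), Cxcl1 (adjusted p = 0.452), Cxcl5 (adjusted p = 0.999), Ccl3 (adjusted p = 0.665), Il4 (adjusted p = 0.996) and Il13 (adjusted p = 0.939) did not pass, nor did the vessel growth factor Vegfa (log2 fold change -0.35, adjusted p = 0.521). Neutrophil genes had a median of 0.63 with 0 of 14 higher, which moved to 0.03 with the length trend removed and to 0.19 without BCP+MSC+RvE1 replicate 1, and the 19 chemokines of monocytes and lymphocytes had 0.46, which moved to 0.07.

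Lymphocyte genes are given by their levels and list medians. Foxp3 was at 1.28, 0.914, 1.27 and 2.14 CPM in BCP and 0.68, 0.421, 0.851 and 0.998 CPM in BCP+MSC+RvE1 (log2 fold change -0.89, SE 0.50, adjusted p = 0.37), with Flicr on the same strand and Ccdc22 on the other overlapping its locus. Of 14 genes of regulatory T cells 0 were called and 4 were positive (median -0.42, or -0.13 without BCP replicate 1). Il7r, the interleukin 7 receptor, lay below BCP in each sample, at 182, 202, 182 and 245 CPM against 110, 91.5, 149 and 94.1 CPM (log2 fold change -0.87, adjusted p = 0.311). The T cell list had 0 of 15 called, 11 positive and a median of 0.36, which was -0.04 with the length trend removed, -0.0482 with 5 positive without BCP+MSC+RvE1 replicate 4, and 0.0784 without BCP replicate 4.

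Per2, Cry1 and Nr1d1, genes of the circadian clock, were among those with the smallest p. Per2, a repressor of the clock, had the smallest p among the lower genes named by rule, at 15.4, 27.8, 22.4 and 31.4 CPM in BCP and 14.2, 9.45, 11.5 and 6.90 CPM in BCP+MSC+RvE1 (ENSMUSG00000055866.9, chr1:91415982-91459324; log2 fold change -1.21, SE 0.26). Cry1, its partner, was at 20.5, 22.5, 24.8 and 23.0 CPM against 11.0, 6.44, 15.7 and 10.8 CPM (log2 fold change -1.04, SE 0.25), and missed the fold threshold without BCP replicate 3 or BCP+MSC+RvE1 replicate 2. Nr1d1, or Rev-erb alpha, a repressor of the opposite phase, was at 11.4, 23.6, 8.60 and 5.98 CPM in BCP and 67.9, 35.99, 40.7 and 35.5 CPM in BCP+MSC+RvE1 (chr11:98767932-98775333; log2 fold change 1.86, SE 0.44), with Thra on the opposite strand of its locus. In a list of 16 clock genes chosen after these values were seen, 2 lay above BCP in each sample (Nr1d1 and Nr1d2), 2 below (Per2 and Cry1), and 12 overlapped. Over all genes 4.79% lay above and 5.8% below, and nothing is read from the list's count, since its choice followed from these genes. The hour at which constructs were collected is not given in the sources used here, so its part was not tested. In BCP+MSC these genes were at 9.65 ± 2.07 CPM (SD, n = 4) for Per2, 9.95 ± 3.77 (SD, n = 4) for Cry1 and 42.9 ± 3.46 (SD, n = 4) for Nr1d1.

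Immediate early genes, which cells switch on within minutes of a stimulus, had 2 of 18 lower and 2 of 18 positive, with a median of -0.65. Without BCP replicate 3 the median was 0.0256 and 10 were positive. The count of lower genes was 6 without BCP replicate 1, 5 without BCP replicate 2 and 7 without BCP+MSC+RvE1 replicate 3. Egr3 was at 3.96, 3.00, 9.43 and 24.1 CPM in BCP and 0.531, 0.18, 3.12 and 0.797 CPM in BCP+MSC+RvE1 (log2 fold change -3.10, SE 1.02). Nr4a2 was at 3.96, 4.29, 28.3 and 29.3 CPM against 3.06, 2.83, 11.1 and 4.03 CPM (log2 fold change -1.64, SE 0.53). In both, BCP replicates 3 and 4 were high, BCP+MSC+RvE1 replicate 3 was the highest of its group, and the groups overlapped. Egr3 was not called with the muscle covariate (-1.93), nor Nr4a2 in the fit of the 8 samples. The list's mean log2 CPM was 4.70, 5.05, 7.03 and 6.28 in BCP and 4.73, 4.85, 5.90 and 5.34 in BCP+MSC+RvE1.

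The other genes with the smallest p had varied roles. Saa3, a serum amyloid made at sites of inflammation, was at 44.2, 27.7, 69.6 and 40.2 CPM in BCP and 154, 365, 105 and 162 CPM in BCP+MSC+RvE1 (log2 fold change 2.11, SE 0.54). C2, a component of the classical complement pathway, was at 17.8, 21.7, 23.0 and 10.6 CPM against 44.8, 48.5, 31.1 and 48.3 CPM (log2 fold change 1.24, SE 0.30). Gm20547 on the same strand and Zbtb12 on the other overlap its locus. Nnmt, which methylates nicotinamide, was at 26.4, 27.2, 34.0 and 12.5 CPM in BCP and 101, 74.6, 41.1 and 92.9 CPM in BCP+MSC+RvE1 (log2 fold change 1.63, SE 0.42). Phgdh, the first enzyme of serine synthesis, was at 22.3, 25.6, 32.6 and 6.11 CPM against 119, 84.7, 40.2 and 114 CPM (log2 fold change 2.04, SE 0.57). The calls of Saa3, C2, Nnmt and Phgdh held in all 19 alternative fits run for them, which include leaving out each library, the muscle level and the length trend, and in each the nearest libraries of the groups were the replicates 3.

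The remaining higher genes were Syp, a synaptic vesicle protein (log2 fold change 1.64, SE 0.44), Ptges3l (1.81, SE 0.50), Hacd1, a fatty acid elongation enzyme of muscle (1.18, SE 0.35), and Bod1, a kinetochore protein (1.30, SE 0.38). Syp was at 1.75, 1.35, 2.02 and 0.881 CPM in BCP and 4.53, 6.14, 2.71 and 5.55 CPM in BCP+MSC+RvE1. Hacd1 and Bod1 missed the fold threshold with the length trend removed (0.93 and 0.91) and with the muscle covariate (0.81 and 0.90).

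Of the lower genes, 4 were scarce in BCP+MSC+RvE1. Neurog2, a transcription factor of developing neurons, was at 5.31, 3.25, 0.691 and 15.1 CPM in BCP and 0.449, 0.12, 0.208 and 0.417 CPM in BCP+MSC+RvE1 (log2 fold change -4.25, SE 1.09). Tmem196 was at 4.72, 2.14, 0.683 and 12.1 CPM against 0.585, 0.12, 0.34 and 0.402 CPM (log2 fold change -3.68, SE 0.86). Fbxl7, a subunit of a ubiquitin ligase, was at 8.86, 3.53, 0.715 and 12.5 CPM against 0.395, 0.241, 0.492 and 0.298 CPM (log2 fold change -4.12, SE 1.11), and Fam71e2 had a log2 fold change of -4.15 (SE 1.07). In each of the 4, BCP replicate 4 was highest, then replicates 1, 2 and 3, an order that 7 of the 10 lower genes named by rule shared, with Qprt, Dusp4 and Dcaf1 below. It is also the order of the BCP libraries from lowest to highest in the short minus long measure and in the library total, and the part of either was not tested beyond these fits. With the length trend removed their log2 fold changes were -4.70, -4.23, -4.78 and -4.47, with the muscle covariate -2.90, -2.43, -2.62 and -2.68, and with the library total as a covariate -2.605, -2.35, -3.00 and -2.51.

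Qprt, an enzyme of NAD synthesis, was at 14.2, 10.6, 7.27 and 23.0 CPM in BCP and 5.59, 2.53, 3.40 and 4.84 CPM in BCP+MSC+RvE1 (log2 fold change -1.74, SE 0.44). Dusp4, a phosphatase that turns off MAP kinases, was at 30.6, 22.7, 13.5 and 32.0 CPM against 8.20, 6.20, 10.3 and 7.87 CPM (log2 fold change -1.60, SE 0.41). Dcaf1, a substrate receptor of a ubiquitin ligase, was at 42.6, 28.6, 16.1 and 81.1 CPM against 15.8, 12.5, 15.0 and 11.8 CPM (log2 fold change -1.605, SE 0.42), with Manf and Rbm15b on the opposite strand of its locus, and just missed the fold threshold with the muscle covariate (-0.995). Atp13a3, a polyamine transporter, was close to the fold threshold (log2 fold change -1.015, SE 0.27) and was called in 9 of 19 fits. It lost its call with the length trend removed (-0.72), with the muscle covariate (-0.69), without BCP replicate 1 or 4 and without BCP+MSC+RvE1 replicate 2 or 4.

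**Figure D4:**
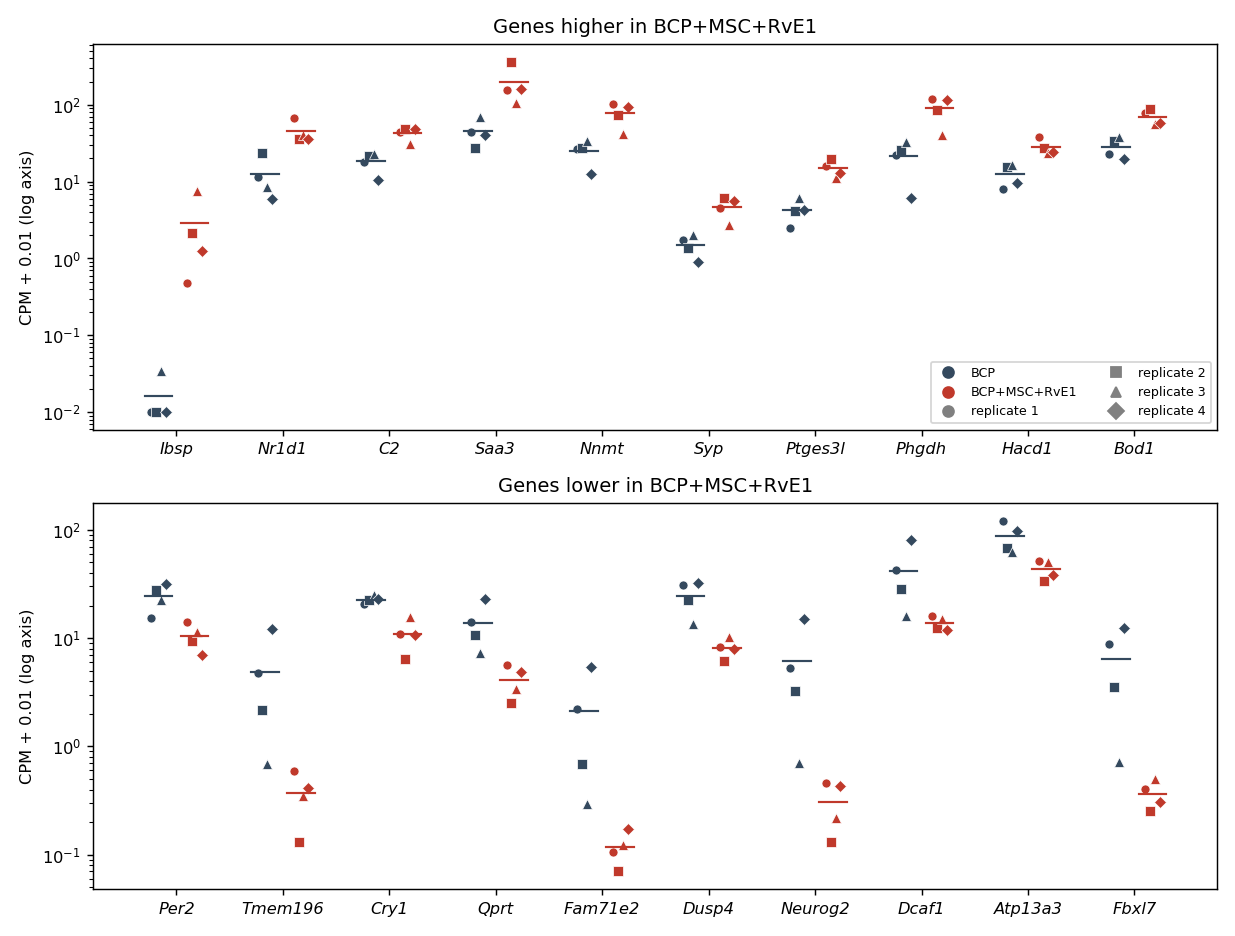
CPM plus 0.01 on a log axis (y axis) for the 10 higher (top) and 10 lower (bottom) genes with the smallest p named by rule (x axis), for each of the 8 libraries (symbols, by replicate), with lines for group means. Neurog2 lies between 0.691 and 15.1 CPM in BCP and between 0.12 and 0.449 CPM in BCP+MSC+RvE1.

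Set against constructs with cells that were not primed, fewer genes were called. BCP+MSC against BCP had 762 higher (2.49%) and 558 lower (1.83%) genes, and BCP+MSC+RvE1 against BCP+MSC had 338 higher (1.11%) and 425 lower (1.39%). The contrasts against BCP share the 4 BCP libraries, and the values below are side by side for that reason. Both contrasts of BCP+MSC+RvE1 share its 4 libraries. Of the 4 BCP+MSC libraries 3 had more Xist than Y-linked counts, against 0 of the 4 BCP+MSC+RvE1 libraries. The part of sex in these contrasts was not tested. For the 77 respiratory subunits the median log2 fold change was 0.65 for BCP+MSC against BCP, with 76 positive and 0 higher, and 0.55 for BCP+MSC+RvE1 against BCP+MSC, with 77 positive, 0 higher and 0 with an unadjusted p under 0.05. The mean log2 CPM of complex I was 5.61 ± 0.55 in BCP, 6.20 ± 0.78 in BCP+MSC, 6.57 ± 1.14 in BCP+MSC+Treg and 6.87 ± 0.38 in BCP+MSC+RvE1 (SD, n = 4 each), and neighbours in this order differ by less than the larger of their SDs.

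For single genes, Ibsp was at 4.198 ± 7.498 CPM in BCP+MSC and 2.85 ± 3.20 CPM in BCP+MSC+RvE1 (SD, n = 4 each), and the log2 fold change between these was -0.56 (SE 1.05). Fgf4 had 1.51 (SE 0.99) and Bglap -0.78 (SE 1.18) in the same contrast, and none of the 3 had an unadjusted p under 0.05. C2 was above BCP+MSC in BCP+MSC+RvE1 by a log2 fold change of 0.83 (SE 0.30), Nnmt by 0.94 (SE 0.41), Syp by 0.89 (SE 0.43) and Hacd1 by 0.75 (SE 0.35). These 4 had an unadjusted p under 0.05 but a fold below the threshold. Of the genes named by rule, 4 were past both thresholds in this contrast, Nog with 1.26 (SE 0.61), Fbxl7 with -2.15 (SE 1.03), Tchh of hair follicles with -1.08 (SE 0.51), and Klrc3 of NK cells, which had 0 counts in each BCP+MSC+RvE1 library and at most 0.0916 CPM in BCP+MSC, so that no fold is given. Nog was at 0.787 ± 0.381 CPM in BCP+MSC and 1.90 ± 0.82 CPM in BCP+MSC+RvE1 (SD, n = 4 each). Single libraries were not left out in this contrast. Per2 and Cry1 had 0.12 (SE 0.25) and 0.15 (SE 0.25), and Nr1d1 0.07 (SE 0.42).

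**Figure D5:**
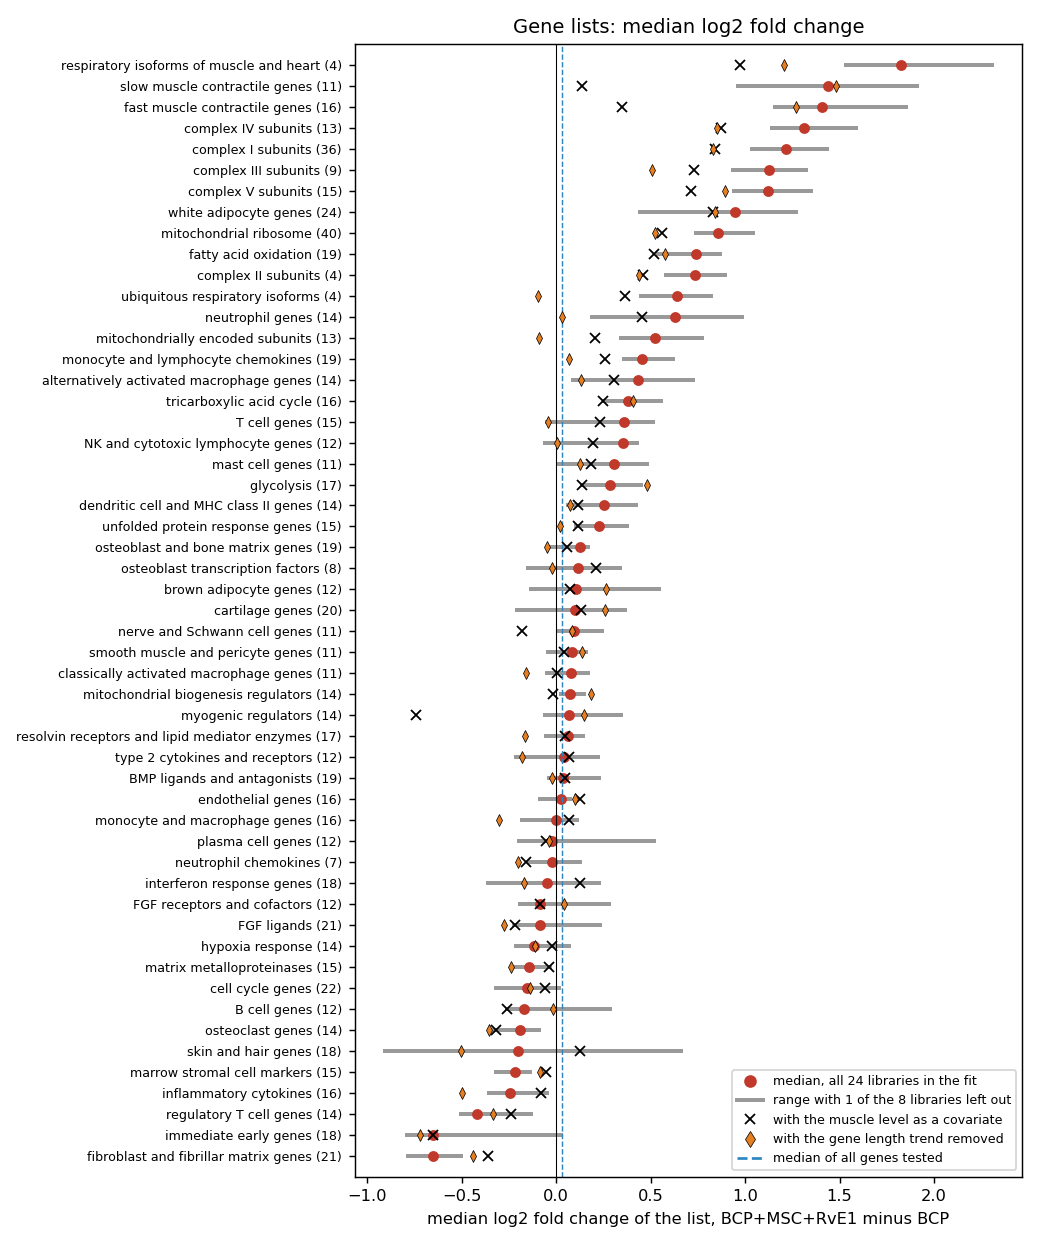
Median log2 fold change of BCP+MSC+RvE1 against BCP for the 53 gene lists (y axis, with the number of genes tested), as red points. Grey bars span the fits with 1 of the 8 libraries left out, crosses have the muscle level as a covariate, diamonds have the gene length trend removed, and the dashed line is the median of all genes, 0.03. Complexes I, III, IV and V lie between 1.12 and 1.31, and the fibroblast list at -0.65.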

How the data were processed

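Bulk RNA sequencing was carried out on whole constructs, 1 library per mouse, and the 4 BCP and 4 BCP+MSC+RvE1 libraries were compared. The deposited values are raw counts per gene. The authors aligned the reads with HISAT2 2.0.5 and counted read pairs in exons with featureCounts 1.5.2 on the GENCODE M13 annotation of GRCm38. The file header shows no option for strand, multi-mapping reads or overlapping genes. Reads in a stretch that a gene shares with an overlapping or antisense gene thus cannot be assigned to either of them. The counting command named 28 alignments, and 24 columns are used here. The group BCP+MSC+RvE1 rests on the columns named R, as the labels and the series' text give it, while the command also named 4 alignments RVE that are not analysed here and whose group is not known. The exonic length of each gene is that of the same deposited table.

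The table held 51138 genes, of which 30564 with at least 10 counts in total were tested. edgeR 4.0.16 (R 4.3.3) was used with TMM normalization and the robust quasi-likelihood test on all 24 samples in their 6 groups, which share the estimate of the spread, with Benjamini-Hochberg adjustment over all genes tested. CPM use the TMM library sizes, and log2 CPM a prior count of 2. Exact permutation tests were two-sided over 70 arrangements. Counting intervals (95%) and the floor of 3 counts cover counting error only. The fit was tested on simulated data.

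The genes named were those of interest to the study, the 10 higher and 10 lower protein-coding genes with the smallest p whose groups did not overlap and whose mean was at least 1 CPM, and the 3 members with the smallest p in each of 53 gene lists. Further genes were named after their values were seen, to complete small counts, to go with a promoter or an isoform pair, or as common markers, among them Ndufb4, Ndufs5, Atp5g3, mt-Co1, Ppargc1a, Pgam2, Eno3, Spp1 and the clock genes. The members and lists were chosen with earlier results of these data known, and lists are described by counts and medians with no test.

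The alternatives were DESeq2 1.42.0, RLE normalization, other filters, counts thinned to equal totals, edgeR on the 8 samples, the library total or the muscle level as a covariate, the replicate block and leaving out each library. The gene length trend (lowess with a span of 0.3 in each library, over genes with a mean of at least 1 CPM, taken into the offset) was chosen after seeing the data. Promoters were read from RefSeq (GRCm38.p6) and searched with exact letters.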

Additional observations from a re-analysis of the deposited data

Results flagged for a closer look

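In 18 of 310 groups of 4 libraries tested, 1 library stood apart from the other 3 by Dixon's criterion, and chance alone gives about 1 in 20. In BCP, replicate 4 was low in Plin4, a lipid droplet protein (4.72 CPM, others 126 to 149), and in the mean log2 CPM of the white adipocyte genes (3.49, others 7.24 to 7.86), and it was high in Has2 (69.4 CPM, others 12.1 to 21.5) and Nfatc1 (68.2 CPM, others 51.6 to 54.2). BCP replicate 1 was high in the skin and hair genes (mean log2 CPM -0.47, others -2.97 to -2.73). BCP replicate 3, with 134691903 counts, was the only BCP library with a count of Ibsp (0.0241 CPM), Fgf4 (0.00803 CPM) and Bglap (0.00803 CPM). With 0 counts in the other BCP libraries these groups meet the criterion by construction, so nothing is read from their flags.

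In BCP+MSC+RvE1, replicate 3 was high in Has2 (19.2 CPM, others 5.96 to 7.41), Mmp19 (691 CPM, others 191 to 248) and Nr4a2 (11.1 CPM, others 2.83 to 4.03), and low in the mitochondrial ribosome (mean log2 CPM 4.92, others 5.37 to 5.43) and the ubiquitous respiratory isoforms (6.89, others 7.68 to 7.84). Replicate 1 was high in Nr1d1 (67.9 CPM, others 35.5 to 40.7) and Ucp1 (1.12 CPM, others 0 to 0.0894). Replicate 4 was high in the T cell genes (mean log2 CPM 3.12, others 1.98 to 2.06) and in the NK and cytotoxic lymphocyte genes (2.22, others 1.19 to 1.26). Replicate 2 was low in Tnfsf11 (1.86 CPM, others 3.30 to 3.57).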

How the results depend on the processing

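The count of higher genes, 1638, became 873 with the gene length trend removed (761 in common) and 881 with the muscle covariate, and ran from 888 to 2033 when 1 library was left out (888 without BCP+MSC+RvE1 replicate 2, 975 without BCP replicate 4). The count of lower genes, 972, became 638 with the library total as a covariate, 440 with the muscle covariate and 628 with the replicate block, and ran from 591 to 1434 when 1 library was left out (591 without BCP replicate 4). Same-numbered samples deviated together in 1 pair only (r = 0.59, 0.03, -0.23 and -0.01), so the numbers were not taken as pairs. Past an adjusted p of 0.05 there were 0 genes in edgeR, 101 in DESeq2 on all samples and 2640 in DESeq2 on the 8 samples. The 50 higher respiratory subunits became 22 with the length trend removed and 12 with the muscle covariate, and 27 to 59 when 1 library was left out. Causes were not tested.

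For 101 genes under 19 alternatives, 1705 of 1917 values kept direction and side of the threshold, 151 lost the call, 35 gained it and 26 turned sign. Sign turned with the length trend removed for Cox8a (-0.72), Spp1 (-0.16), Ltb4r1 (-0.0495), Tnf (-0.16), Il13 (-0.29) and Ccl3 (-0.42), for Il4 with thinned counts (0.10) or on the 8 samples (0.0019), and for Cxcl5 on the 8 samples (0.0066). Without 1 library, log2 fold changes ran from -0.48 to 0.29 for mt-Co1, -0.0885 to 0.38 for Cox8a, -0.23 to 0.24 for Il4, -0.59 to 0.62 for Il13, -2.15 to 0.0831 for Cxcl1 and -0.15 to 0.13 for Cxcl5. Vegfa ran from -0.55 to -0.0924 in the same fits. Of 1007 list medians 13 moved by over 1 SD. The totals, from 14111255 counts upward, limit genes near the floor, such as Fgf4 and Bglap.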

Other observations

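Other gene lists are given by their calls and medians. The calls of Ankrd37, Chac1, Trib3, Fgfrl1, Cldn5, Tchh and Klrc3 held in 9 to 15 of 18 or 19 alternative fits, and except for Klrc3 each was lost with the length trend removed. The 12 brown adipocyte genes had 2 higher, the respiratory isoforms Cox7a1 and Cox8b (0 with the length trend removed), and a median log2 fold change of 0.10. Of 14 hypoxia response genes 1 was higher, Ankrd37, and the median was -0.12. The unfolded protein response had 2 of 15 higher, Chac1 and Trib3, with 13 positive and a median of 0.22, or 0 higher and a median of 0.0193 with the length trend removed. Genes of the FGF receptors and cofactors had 1 of 12 higher, Fgfrl1, and the endothelial list 1 of 16, Cldn5. Nerve and Schwann cell genes had 0 of 11 called (median 0.09), and the 18 skin and hair genes 1 lower, Tchh (median -0.20). Of 12 NK and cytotoxic lymphocyte genes 10 were positive and 1 was lower, Klrc3, with 0, 4, 11 and 0 counts in BCP and 0 in each BCP+MSC+RvE1 library (median 0.35, or 0.00 with the length trend removed). Without BCP+MSC+RvE1 replicate 4 the median was -0.0565, 5 were positive and 0 were lower.

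Lists with 0 called were the B cell genes (median -0.17), plasma cell genes (-0.02), mast cell genes (0.31, or 0.00765 without BCP replicate 4), dendritic cell and MHC class II genes (0.25, or 0.0642 without BCP replicate 4), interferon response genes (-0.05), type 2 cytokines and receptors (0.04), neutrophil chemokines (-0.02) and cell cycle genes (-0.15). Of the 53 lists, 24 had a median that turned sign when 1 library was left out, the immediate early genes being the largest of them as reported (-0.65). The B cell genes summed to between 147.7 and 1430 CPM in BCP and between 495.3 and 3596 CPM in BCP+MSC+RvE1.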
